A study of Mus musculus with 5 samples.

Results

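A set of 50 genes that write, remove or read methyl groups on histones and DNA was followed in Hdac3-null liver tumours and in control livers. The genes were chosen by name and not picked by their measured values, but earlier results of these data were known. By exact symbol, 45 of the 50 were found among 19938 measured genes. Of the rest, Setd8, Suv420h1 and Suv420h2 are carried under their newer symbols Kmt5a, Kmt5b and Kmt5c and are described beside the 45, while Suv39h1 and Ash1l were not analysed here. A gene with several probe sets was represented by the one with the highest mean over all 5 arrays.

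The RNA came from whole livers of male mice about 10 months old on regular food. Both control livers were normal tissue from Hdac3FL/+;AlbCre+ mice and the 3 tumours came from Hdac3FL/-;AlbCre+ mice. Every animal therefore carried a floxed Hdac3 allele and Cre recombinase driven by the albumin promoter, which acts in hepatocytes. The control hepatocytes thus keep a single wild-type allele. Liver cells in which Cre does not act keep both alleles in controls, but only the floxed allele in the tumour mice. Every null sample was tumour and every control was normal liver, so loss of Hdac3 and tumour formation cannot be told apart. Values are log2 expression per probe set as the authors deposited it, and a difference of 1 unit is a 2-fold change.

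Methylation of lysine 9 on histone H3 (H3K9) marks silent chromatin. Writers such as the Suv39h, Setdb and Ehmt enzymes add the mark, heterochromatin protein 1 (HP1, encoded by Cbx1, Cbx3 and Cbx5) binds it, and Kdm3 and Kdm4 enzymes remove it. Hdac3 is a deacetylase, and lysine 9 must be free of acetyl groups before it can be methylated. DNA methylation is coupled to the same mark through Uhrf1, which binds methylated H3K9 and hemimethylated DNA and brings Dnmt1 to newly copied strands.

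Few of these transcripts passed limma at an adjusted p under 0.05. Setdb2, a writer of H3K9 methylation, fell 3.33-fold, Kdm1b, an eraser of H3K4 methylation, fell 1.86-fold, and Uhrf1 rose 2.3-fold. Among the genes under newer symbols, Kmt5a, which monomethylates lysine 20 of histone H4, rose 1.92-fold. The 3 called genes were 6.67% of the 45 members, against 10.6% of all genes called by limma at an adjusted p under 0.05, so calls were not more frequent here than in the table as a whole. In each direction the members had 1 rise, where 5.6% of all genes rose, and 2 falls, where 4.96% fell. With the 3 genes under newer symbols the count was 4 of 48, 2 risen and 2 fallen. Unadjusted p-values under 0.05 were found for 15 of the 45, or 33.3%, against 25.2% of all genes. The median absolute log2 change was 0.29 for the members and 0.20 for all genes. All genes here include dim ones, while 42 of the 45 members remained with the dimmest 40% of genes left out. These comparisons are therefore not matched for brightness. A gene that did not pass was not shown to be unchanged.

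The promoter sequences of the 4 called genes are shown because their transcripts moved in both directions and because Uhrf1 is known to be transcribed with the cell cycle. Each is a RefSeq window of GRCm38.p6, from 250 bases before to 50 bases after a transcription start, printed 5′ to 3′ on the gene's own strand. Capitals mark matches on either strand to TTTCCCGC, TTTGGCGC or TTTCGCGC (E2F-type), to TTTGAA (the cell cycle homology region, CHR) or to CCAAT, none of which contains another. Setdb2 lies at chr14:59440831-59441130 on the minus strand, Kdm1b at chr13:47043249-47043548, Uhrf1 at chr17:56304063-56304362 and Kmt5a at chr5:124439680-124439979, the last 3 on the plus strand.
Setdb2: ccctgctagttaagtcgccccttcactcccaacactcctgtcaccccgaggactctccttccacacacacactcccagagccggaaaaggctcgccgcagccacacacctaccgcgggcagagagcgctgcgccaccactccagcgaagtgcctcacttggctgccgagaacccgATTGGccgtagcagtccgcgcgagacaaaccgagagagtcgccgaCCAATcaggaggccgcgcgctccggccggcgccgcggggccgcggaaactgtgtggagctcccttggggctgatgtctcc
Kdm1b: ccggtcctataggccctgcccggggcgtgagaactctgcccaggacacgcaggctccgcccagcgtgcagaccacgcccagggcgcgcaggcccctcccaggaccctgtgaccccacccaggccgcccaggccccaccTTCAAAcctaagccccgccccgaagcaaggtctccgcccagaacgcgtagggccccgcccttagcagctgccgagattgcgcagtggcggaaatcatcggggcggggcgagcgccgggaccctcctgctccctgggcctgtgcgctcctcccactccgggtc
Uhrf1: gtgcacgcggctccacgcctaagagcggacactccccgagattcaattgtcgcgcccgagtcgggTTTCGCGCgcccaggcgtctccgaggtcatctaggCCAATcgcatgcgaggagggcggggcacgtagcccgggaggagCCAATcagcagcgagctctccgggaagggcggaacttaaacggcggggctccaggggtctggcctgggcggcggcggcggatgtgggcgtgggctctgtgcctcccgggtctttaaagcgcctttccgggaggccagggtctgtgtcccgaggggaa
Kmt5a: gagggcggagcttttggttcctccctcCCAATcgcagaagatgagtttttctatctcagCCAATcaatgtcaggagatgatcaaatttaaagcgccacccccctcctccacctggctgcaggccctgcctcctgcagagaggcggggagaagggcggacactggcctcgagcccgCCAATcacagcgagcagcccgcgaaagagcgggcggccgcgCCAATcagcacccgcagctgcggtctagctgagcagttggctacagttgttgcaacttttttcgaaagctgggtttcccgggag

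The Uhrf1 window is the second of 2 in the table and the one that held an E2F-type match, TTTCGCGC, at position −185 from the start. It also held CCAAT at −150 and −107, and the other Uhrf1 window held 3 CCAAT matches and no E2F-type match. The Kmt5a window is the first of 3 and held 4 CCAAT matches, Setdb2 held 2, and Kdm1b held 1 CHR match. No match in a window says only that these letters are not in it.

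Over all 32851 windows of the table, 1.84% held an E2F-type match, 17.9% a CHR match and 37.4% CCAAT. Of the 49 windows of 35 members with an entry, 10.2% held an E2F-type match, 12.2% a CHR match and 40.8% CCAAT. The 5 windows with an E2F-type match belonged to Uhrf1, Dnmt1, Ezh2, Suz12 and Cbx3. The members' windows also held a median of 28 CG dinucleotides, against 7 over all windows. A match is a description of the letters and does not show that a factor binds.

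Hdac3 itself checked the labels. It stood at 8.21 and 8.37 in control livers 1 and 2 and at 6.78, 6.57 and 6.65 in tumours 1, 2 and 3, so it fell by 1.62 on the log2 scale (95% interval −1.95 to −1.30; limma adjusted p = 0.00298). Whether its probes lie within the deleted part was not analysed here. Array medians lay between 5.66 and 5.77. Markers of proliferating cells, summed over 11 genes, lay between 60.6 and 61.8 log2 units in controls and between 71.0 and 83.2 in tumours, and 6 rose and 0 fell. For 10 macrophage genes the sums were 63.3 to 67.7 and 70.6 to 81.0 (4 risen, 1 fallen), for 7 T and NK cell genes 32.5 to 32.6 and 35.8 to 44.5, for 5 B cell genes 22.5 to 24.1 and 22.8 to 23.9, and for 6 cholangiocyte genes 29.3 to 29.4 and 32.5 to 34.9. The sums for 8 stellate cell and fibroblast genes were 53.6 to 54.7 and 52.6 to 65.4 (1 risen), for 8 endothelial genes 59.0 to 60.1 and 49.5 to 67.8, and for 7 hepatocyte genes 85.4 to 85.9 and 81.7 to 84.2 (2 fallen), with every tumour under both controls. In whole tissue, fewer cells of a type and less RNA per cell cannot be told apart, and the part of these cell types in the results was not tested.

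Among the writers of H3K9 methylation, Setdb2 stood apart. It measured 7.59 and 7.46 in controls 1 and 2 and 6.10, 5.55 and 5.71 in tumours 1, 2 and 3. All 3 tumours lay more than 1 unit under both controls, and the difference of −1.73 log2 units (95% interval −2.20 to −1.27 with 2 and 3 arrays; limma adjusted p = 0.00592) was far larger than the spread within either group (SD 0.09 and 0.28). Its paralogue Setdb1, the enzyme that Trim28 brings to retroelements, measured 7.82 and 7.59 in controls against 7.66, 7.60 and 7.77 in tumours. The Setdb1 groups overlapped, with a change of −0.03 (interval −0.36 to 0.30; limma adjusted p = 0.94).

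Because the probe sets of 2 genes cannot be compared in level, the pair was compared through its log2 ratio within each array. Setdb2 minus Setdb1 was −0.23 and −0.13 in the controls and −1.56, −2.05 and −2.06 in the tumours, a shift of −1.71 (95% interval −2.40 to −1.02, from the spread within groups). The exact two-sided permutation p was 0.1, the smallest that 2 arrays against 3 can give, and 0.25 when adjusted over the 5 pairs of paralogues compared, which were chosen after values were seen.

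The other H3K9 writers did not pass the test. Ehmt1 and Ehmt2 (GLP and G9a) form the dimer that lays down mono- and dimethylation in euchromatin. Ehmt1 measured 7.41 and 7.37 in controls and 7.05, 7.17 and 6.92 in tumours, all under both controls, with a change of −0.34 (interval −0.66 to −0.02; limma adjusted p = 0.177). Ehmt2 measured 8.09 and 8.0 against 8.06, 7.97 and 8.06, so its groups overlapped, and its change was −0.02 (interval −0.31 to 0.27). Their log2 ratio within arrays, Ehmt2 minus Ehmt1, differed by 0.32 between tumours and controls (interval −0.09 to 0.73; exact permutation p = 0.2, adjusted p = 0.25).

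Prdm2 (RIZ), a PR domain methyltransferase, measured 7.52 and 7.92 in controls and 7.39, 7.41 and 7.47 in tumours. The tumours lay together just under control 1, and the change was −0.30 (interval −0.68 to 0.09). Suv39h2, which trimethylates H3K9 at pericentromeric repeats and is best known from testis, was dim at 4.55 and 4.58 in controls and 4.32, 4.57 and 4.92 in tumours. On 4 of the 5 arrays it lay under the lower quartile of all genes, which ran from 4.60 to 4.66, so it was not shown to be above background and its change of 0.04 carries no direction. In all, of 6 measured H3K9 writers 1 fell, 0 rose and 5 did not pass, with a median log2 change of −0.16 beside −0.02 for all genes.

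None of the 4 genes that read the mark passed the test. Cbx5 (HP1 alpha) measured 7.49 and 7.69 in controls and 7.26, 7.15 and 7.26 in tumours, with a change of −0.37 (interval −0.68 to −0.05; limma adjusted p = 0.142). Cbx1 (HP1 beta) measured 7.48 and 7.54 against 7.37, 7.23 and 7.32, a change of −0.21 (interval −0.50 to 0.08). Both lay under the controls in all 3 tumours, by less than 0.5 units on average.

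Cbx3 (HP1 gamma), which is also found in transcribed genes, measured 8.69 and 8.58 in controls and 8.50, 8.84 and 8.92 in tumours, with overlapping groups. It had 7 probe sets with log2 changes between −0.01 and 0.12. Probe sets that match processed copies of the gene may share its signal, so its value is uncertain. Trim28 (KAP1), the corepressor that joins KRAB zinc finger proteins to Setdb1 and HP1, measured 8.94 and 8.92 against 8.89, 8.86 and 9.30. Only tumour 3 lay above the controls, and the change of 0.09 (interval −0.33 to 0.51) turned to −0.01 with every array set to the same median.

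**Figure D1:**
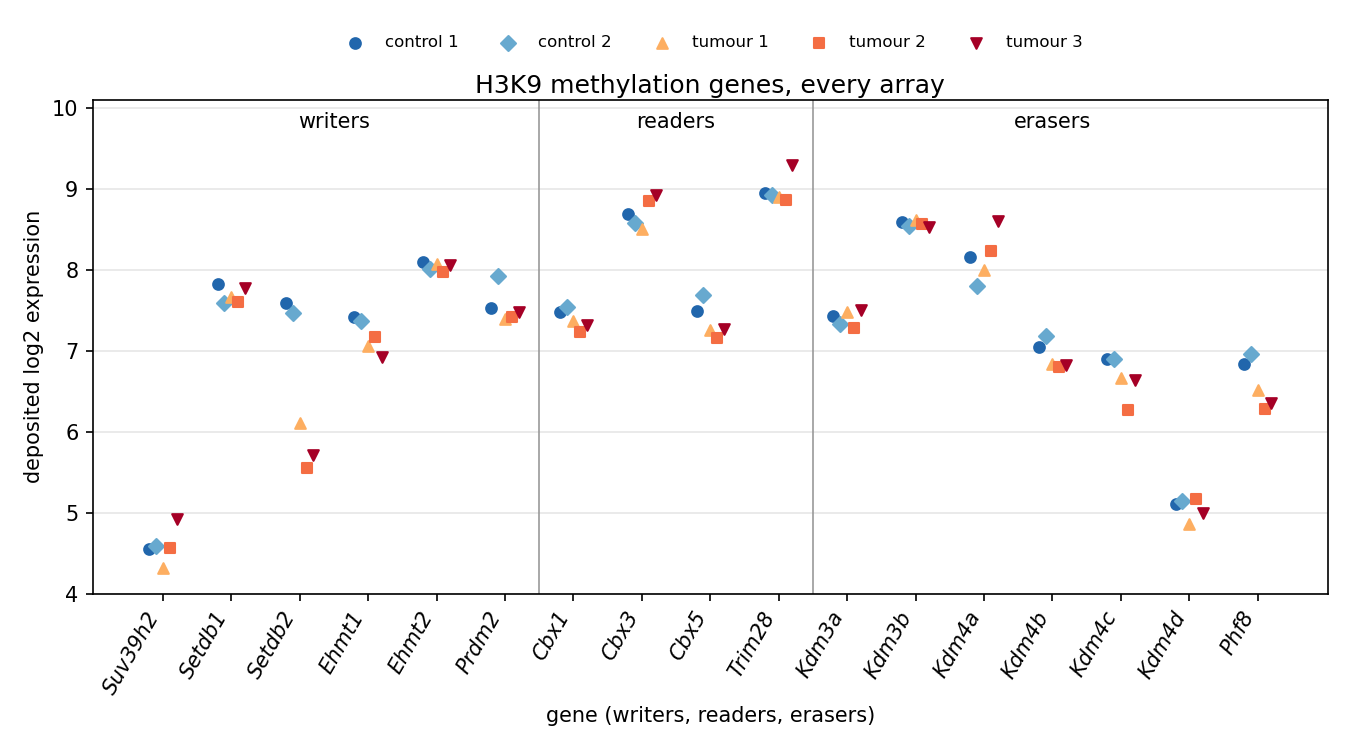
Deposited log2 expression (y axis) of the 17 measured H3K9 writers, readers and erasers (x axis) on each of the 5 arrays, blue for controls and orange to red for tumours. Setdb2 has all 3 tumours more than 1 unit under both controls, and no other gene shown has such a gap.

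Of the 7 erasers of H3K9 methylation 0 were called, and 2 had an unadjusted p under 0.05. Their median absolute log2 change was 0.29, beside 0.20 for all genes, dim ones included. Phf8, an X-linked demethylase of H3K9 and of H4K20, came nearest: it measured 6.84 and 6.96 in controls and 6.51, 6.28 and 6.36 in tumours. All tumours were under both controls, and the change of −0.52 (interval −0.84 to −0.19) missed the threshold at a limma adjusted p = 0.0645. It passed in 3 of 13 other settings and did not in 10. The 3 were every array set to the same median (limma adjusted p = 0.0419), quantile normalisation repeated (0.0469) and array weights (0.0334).

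Kdm4b and Kdm4c, which remove trimethylation from H3K9 and H3K36, also lay under the controls in all tumours. Kdm4b measured 7.05 and 7.18 against 6.83, 6.80 and 6.82, a change of −0.29 (interval −0.58 to −0.01; limma adjusted p = 0.191). Kdm4c measured 6.90 in each control against 6.66, 6.26 and 6.63, a change of −0.38 (interval −0.78 to 0.02). Their relative Kdm4a measured 8.16 and 7.80 against 8.0, 8.23 and 8.60, with overlapping groups and the highest change of the 17 H3K9 genes, 0.29 (interval −0.24 to 0.82).

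Kdm4d, which acts on H3K9 alone of these sites, measured 5.11 and 5.14 in controls and 4.86, 5.17 and 5.00 in tumours, with overlap. Kdm3a, a demethylase of mono- and dimethylated H3K9 that hypoxia induces, measured 7.42 and 7.32 against 7.48, 7.27 and 7.50. Kdm3b measured 8.59 and 8.53 against 8.62, 8.57 and 8.52, a change of 0.01 (interval −0.27 to 0.29). For the 16 H3K9 genes that were not called, the 95% interval of the measured change stayed within 1 log2 unit of 0, which for the dim Suv39h2 sets no limit on its transcript.

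By direction, no H3K9 gene had all 3 tumours above both controls, where 21.1% of all genes did, and 8 of 17 (47.1%) had all 3 below, where 23.1% of all genes did. The 8 were Setdb2, Ehmt1, Prdm2, Cbx1, Cbx5, Kdm4b, Kdm4c and Phf8, so writers, readers and erasers were all among them. The 28 other members lay the other way, with 15 (53.6%) above and 3 (10.7%) below. With every array set to the same median, the H3K9 counts were 0 above and 10 below, and the other members had 9 above and 4 below, beside 15.6% above and 34.4% below for all genes. The median log2 change was −0.12 for the H3K9 genes, 0.27 for the other members and −0.02 for all genes. These counts describe the lists, and neither was tested as a set.

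**Figure D2:**
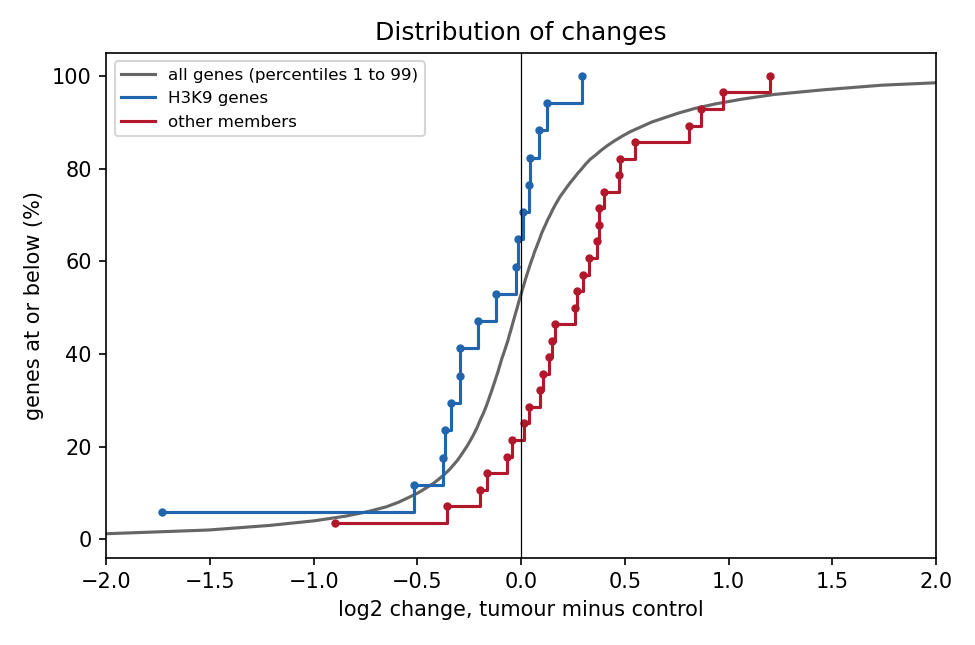
Share of genes at or below a given log2 change (tumour minus control, x axis) for the 17 H3K9 genes in blue, the 28 other members in red and all 19938 genes in grey (percentiles 1 to 99). The blue steps lie to the left of the red ones over most of the range, with medians of −0.12 and 0.27.

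Of the genes for DNA methylation, Uhrf1 rose. It measured 5.71 and 5.38 in controls and 6.52, 6.75 and 6.97 in tumours, a rise of 1.20 on the log2 scale (95% interval 0.75 to 1.65 with 2 and 3 arrays; limma adjusted p = 0.0157). Every tumour lay above both controls. Dnmt1, the maintenance methyltransferase that Uhrf1 recruits, measured 7.08 and 7.15 in controls and 7.73, 7.85 and 8.38 in tumours. Its groups did not overlap either, but its change of 0.87 (interval 0.34 to 1.39) had a limma adjusted p = 0.0581, and with dim genes left out the adjusted p was 0.0494.

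Dnmt3a, a de novo methyltransferase, measured 7.06 and 7.05 against 7.22, 7.52 and 7.63, a change of 0.40 (interval 0.01 to 0.79; limma adjusted p = 0.189). Dnmt3b, its relative, measured 5.43 and 5.17 against 5.03, 5.42 and 5.71, with overlapping groups. Dnmt3b minus Dnmt3a within arrays differed by −0.31 between the groups (interval −0.74 to 0.12; exact permutation p = 0.2, adjusted p = 0.25).

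The tumours ranked alike for Uhrf1, for Dnmt1 and for the proliferation markers. The mean log2 value of the 11 proliferation markers was 5.62 and 5.51 in controls and 6.46, 7.32 and 7.57 in tumours 1, 2 and 3. Mki67, the antigen of cycling cells, measured 4.72 and 5.06 against 6.42, 7.47 and 7.68. Tumour 1 was lowest and tumour 3 highest in each of these. The order was not particular to them: other members had it too, among them Dnmt3a, Kdm1a and Setd7. So did Eed, which lay below the controls. With 3 tumours no correlation can be tested, so the part of proliferation in the levels of Uhrf1 and Dnmt1 was not tested.

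Of the H4K20 enzymes, Kmt5a (Setd8), which monomethylates H4K20 and is turned over during S phase, had the tightest groups. It measured 8.77 and 8.76 in controls and 9.62, 9.72 and 9.78 in tumours, a rise of 0.94 on the log2 scale (95% interval 0.65 to 1.24; limma adjusted p = 0.00954). The range among tumours was 0.16, well under the distance to the controls. Kmt5b and Kmt5c, which add the second and further methyl groups, did not pass the test: Kmt5b changed by −0.21 (interval −0.56 to 0.13) and Kmt5c by −0.17 (interval −0.69 to 0.34). The proliferation markers named above were higher in the same tumours, and their part in the level of Kmt5a was not tested.

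Among enzymes that act on H3K4, the flavin-dependent demethylases Kdm1a (LSD1) and Kdm1b (LSD2) lay in opposite directions. Kdm1b measured 7.74 and 7.83 in controls and 7.14, 6.77 and 6.75 in tumours, so it fell by 0.90 on the log2 scale (95% interval −1.30 to −0.50 with 2 and 3 arrays; limma adjusted p = 0.0251). Kdm1a, the subunit of the CoREST complex, measured 7.32 and 7.26 in controls and 7.73, 8.15 and 8.41 in tumours. All tumours lay above both controls for Kdm1a and below both for Kdm1b, and the Kdm1a change of 0.81 (interval 0.28 to 1.34) did not pass at a limma adjusted p = 0.0702.

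The log2 ratio of Kdm1b to Kdm1a within an array was 0.42 and 0.57 in controls and −0.59, −1.38 and −1.66 in tumours. The ratio was lower in every tumour than in both controls and shifted by −1.71 (interval −3.04 to −0.37; exact permutation p = 0.1, the smallest possible, adjusted p = 0.25). This pair too was chosen after values were seen, so its interval is no separate support. The Kdm5 demethylases, which remove trimethylation from H3K4, did not pass. Kdm5a changed by 0.26, Kdm5b by 0.30 and the X-linked Kdm5c by 0.15, each with an interval that held 0. For each, all tumours lay above both controls, where 21.1% of all genes did the same.

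Of the 4 H3K4 writers, 0 were called. Setd7, which monomethylates H3K4 and many non-histone proteins, measured 5.79 and 5.93 in controls and 6.37, 7.02 and 7.12 in tumours. The tumours were all above the controls, with tumour 1 nearest to them, and the change was 0.97 (interval 0.37 to 1.58; limma adjusted p = 0.0617). Setd1a and Setd1b, which carry the catalytic domain of the complexes that trimethylate H3K4, changed by −0.04 and −0.20, and Smyd3 by 0.16, each with an interval that held 0.

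None of the 6 genes for the H3K27 mark of Polycomb silencing was called. Ezh1, the catalytic subunit typical of resting cells, measured 7.44 and 7.37 in controls and 7.74, 7.69 and 7.76 in tumours, with no overlap and a change of 0.33 (interval 0.04 to 0.61; limma adjusted p = 0.145). Ezh2, the catalytic subunit typical of dividing cells, measured 6.70 and 6.62 against 6.73, 6.98 and 7.39, so tumour 1 lay beside the controls and tumour 3 well above. The ratio of Ezh2 to Ezh1 differed by 0.05 log2 units between the groups (interval −0.72 to 0.82; exact permutation p = 0.7).

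The core subunit Eed lay under both controls in all tumours, at 6.90, 7.04 and 7.18 against 7.46 and 7.34, with a change of −0.36 (interval −0.70 to −0.02; limma adjusted p = 0.174). Its partner Suz12 changed by −0.07. The demethylases Kdm6a (UTX) and Kdm6b (JMJD3) changed by 0.37 and 0.38, and both intervals held 0.

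The H3K36 and H3K79 enzymes were not called. Smyd2 measured 7.71 and 7.58 in controls and 7.98, 8.41 and 7.97 in tumours, a change of 0.48 (interval 0.05 to 0.91; limma adjusted p = 0.161). Dot1l, the H3K79 methyltransferase, measured 6.61 and 6.72 against 6.85, 7.38 and 7.42, a change of 0.55 (interval 0.05 to 1.05; limma adjusted p = 0.162). Setd2, which trimethylates H3K36 behind RNA polymerase, changed by 0.14 and Nsd1 by −0.16. For Nsd1, tumour 2 stood alone at 7.88, while the other tumours (8.51 and 8.53) lay beside the controls (8.49 and 8.44). The CXXC domain demethylases Kdm2a and Kdm2b changed by 0.10 and 0.04.

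The arginine methyltransferases were not called either. Prmt1, which makes most asymmetric dimethylarginine, had the widest range among tumours of the 45 members, 0.86, from 6.71 in tumour 1 to 7.58 in tumour 3, over controls at 6.65 and 6.53 (change 0.47, interval −0.18 to 1.12). Prmt5, which makes symmetric dimethylarginine, changed by 0.27, and Carm1 by 0.01 (interval −0.27 to 0.30).

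**Figure D3:**
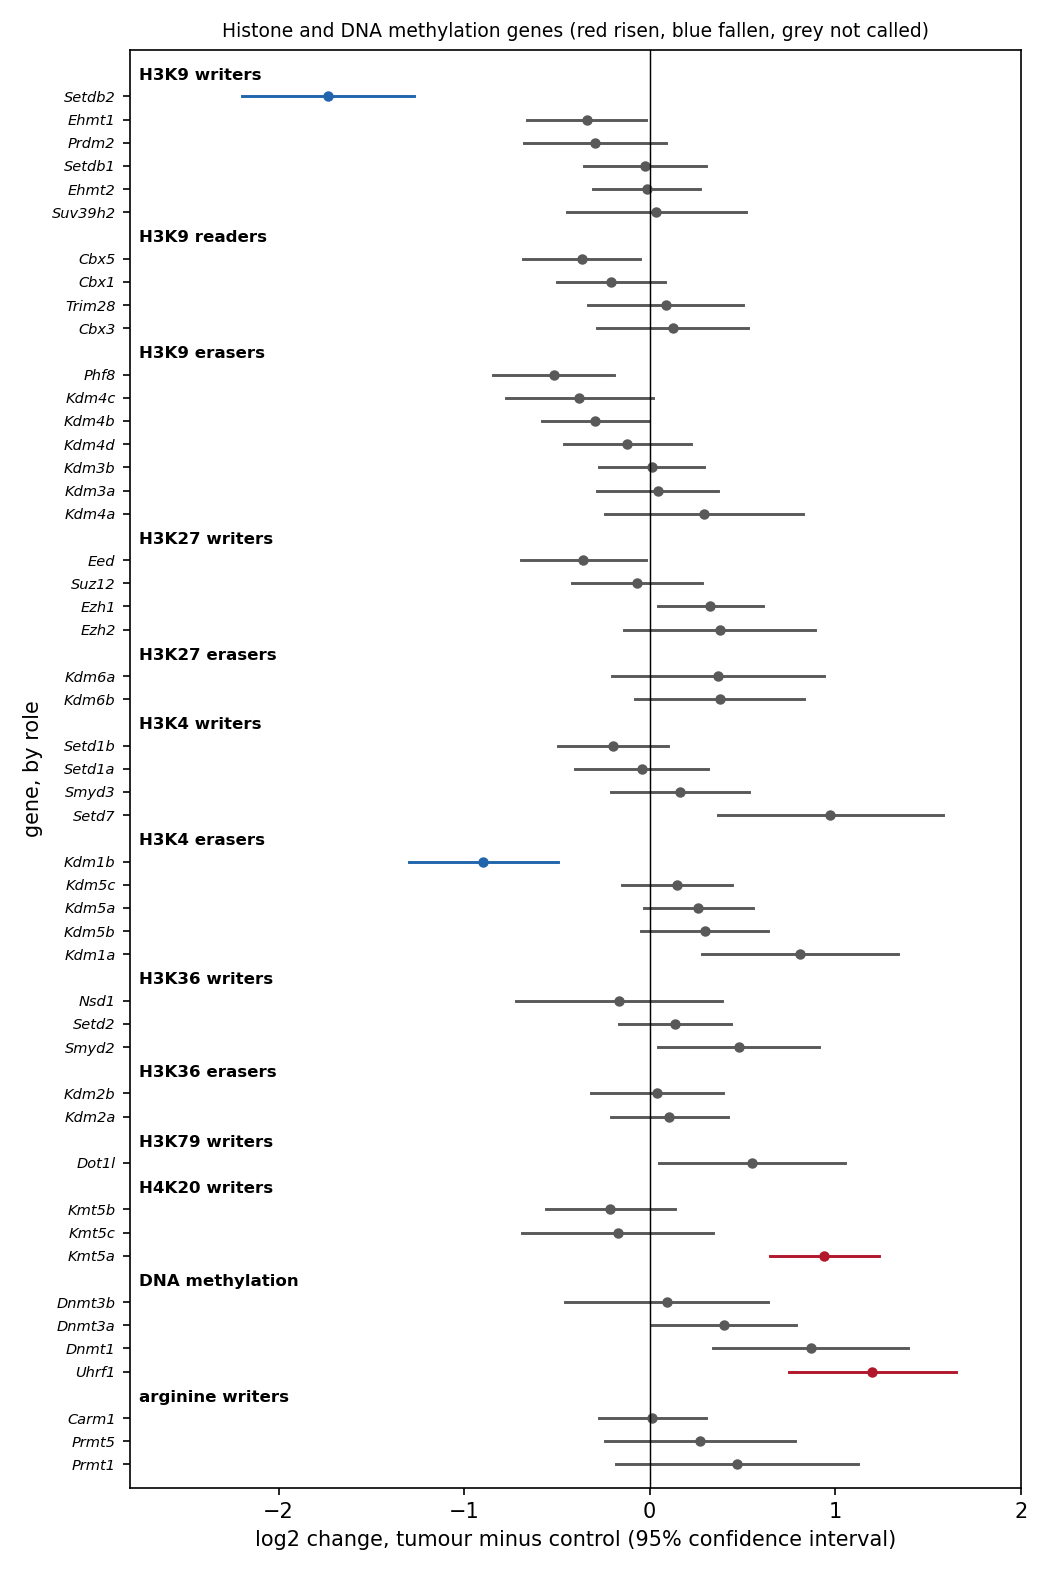
Log2 change (tumour minus control, x axis) with its 95% confidence interval for the 45 members and the 3 genes under newer symbols, grouped by role. Blue marks the falls of Setdb2 and Kdm1b, red the rises of Uhrf1 and Kmt5a, and grey the 44 genes that did not pass.

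Of 18 measured writers of lysine methylation 1 fell and 0 rose, with a median of −0.02 and 10 below the control mean. Of 16 erasers 1 fell and 0 rose, with a median of 0.07 and 5 below the control mean. Over all genes, 10.6% were called and 10553 of 19938 lay below the control mean. The difference between writers and erasers was not tested. The intervals of 37 of the 42 members that were not called stayed within 1 log2 unit of 0; Setd7, Kdm1a, Dnmt1, Dot1l and Prmt1 were the exceptions, all with an upper bound above 1. Changes of at least 2-fold were estimated for 2 members, or 4.44%, against 9.49% of all genes.

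The tumours differed among themselves. The median difference from the control mean over the 45 members was −0.03 in tumour 1, 0.06 in tumour 2 and 0.20 in tumour 3, beside −0.04, −0.04 and 0.03 over all genes. Tumour 3 was the highest of the tumours for 27 members (60%), against 46.6% of all genes. In that tumour the T and NK cell markers had a mean of 6.35, against 5.11 in each of the others, and the endothelial markers 6.19, against 8.48 and 7.35. Stellate cell and fibroblast markers (6.57 against 8.17 and 7.43) and B cell markers were also lowest there. Proliferation markers (7.57 against 6.46 and 7.32) and cholangiocyte markers were highest there, and macrophage and hepatocyte markers lay between the other tumours. When arrays were weighted, tumour 3 had the lowest weight, 0.413. The median range among tumours was 0.31 for the members and 0.33 for all genes.

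**Figure D4:**
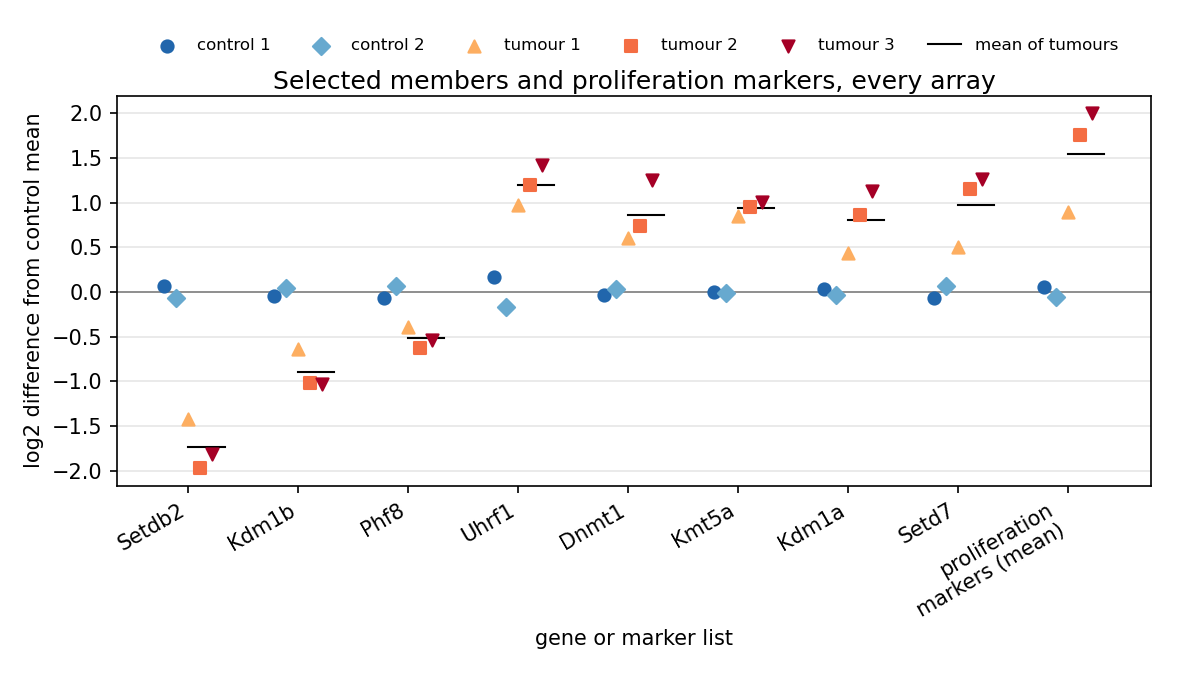
Log2 difference from the control mean (y axis) on each array for Setdb2, Kdm1b, Phf8, Uhrf1, Dnmt1, Kmt5a, Kdm1a and Setd7, and for the mean of 11 proliferation markers. Black lines are tumour means, and tumour 1 lies nearest to the controls in each column.

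The calls rest on both controls. Without control 1 the limma adjusted p-values were 0.0942 for Setdb2, 0.176 for Kdm1b, 0.104 for Uhrf1 and 0.111 for Kmt5a, and without control 2 they were 0.0868, 0.212, 0.163 and 0.119, so 0 of the 45 members were called in either case. The counts over all genes were then 129 and 108. Kdm1b was also lost without tumour 2 (adjusted p = 0.0723), and without tumour 1 the members called were 7, with Dnmt1, Dot1l, Kdm1a and Setd7 added. The log2 changes moved little: Setdb2 lay between −1.89 and −1.62, Kdm1b between −1.02 and −0.83, Uhrf1 between 1.04 and 1.36 and Kmt5a between 0.91 and 0.98 with any array left out. In the fits with a lone control, its spread was taken from the tumours, and Hdac3 itself did not pass there either.

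Other genes of the same machinery were looked up from a list of 115 symbols, which counts older names separately, of which 102 genes were measured. Of these, 12 were called, 5 risen and 7 fallen (11.8%, against 10.6% of all genes), Kmt5a among them. Aebp2, a cofactor of the Ezh2 complex, rose by 1.10, from 6.76 and 6.68 in controls to 7.52, 7.88 and 8.06 in tumours (limma adjusted p = 0.0205). Bmi1, a subunit of the Polycomb complex that ubiquitinates histone H2A, rose by 0.67, and Setd5 by 0.55. Tasor, the scaffold of the HUSH complex that works with Setdb1 on H3K9, measured 8.24 and 8.31 in controls and 7.46, 7.74 and 7.46 in tumours and fell by 0.72 (adjusted p = 0.0308).

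Nsd3, an H3K36 methyltransferase, fell by 0.81 and Kdm5d, the Y-linked relative of Kdm5c, by 0.68. Nnmt, which uses up the methyl donor S-adenosylmethionine on nicotinamide, had the largest change of the 102: it measured 8.80 and 8.66 in controls and 7.22, 5.89 and 6.69 in tumours and fell by 2.14 (adjusted p = 0.0229). Named after their values were seen, the other 4 called genes were Chaf1b (1.03), Rbbp4 (−0.69), Kmt2c (−0.64) and Prdm9 (−0.76). Without either control 0 of the 102 were called, and without tumour 2 the calls were Kmt5a, Nnmt and Tasor. Bmi1 and Setd5 also lost their calls with every array set to the same median, and Kmt2c and Rbbp4 lost theirs with quantile normalisation repeated. Among the 102, 28 had all tumours above both controls, where 21.1% of all genes did, and 32 had all below, where 23.1% did.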

How the data were processed

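RNA from 2 control livers and 3 Hdac3-null liver tumours was hybridised to mouse gene arrays. The authors deposited log2 expression per probe set. The submitters' processing notes name GCOS and RMA without giving versions. RMA normalises arrays by quantiles and compresses large differences. The genome build was not given in the sources used here. Samples were grouped by the labels, which call them biological replicates without naming separate animals, so p-values measure the spread between these arrays. No batch is named in the labels.

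Of 28853 probe sets, 21789 had 1 symbol in the platform's annotation, 1621 had several and 5443 had none, and the last 2 kinds were left out. Entrez identifiers of 21698 were found in a gene table of GRCm38.p6, and 0 symbols differed from it. The probe set with the highest mean represented each of 19938 genes, with no filter on dim genes. The moderated linear model of limma 3.58.1 (lmFit, eBayes; R 4.3.3) ran across all genes and 5 arrays, with 3 residual and 2.98 prior degrees of freedom. Two-sided p-values had Benjamini-Hochberg adjustment over all genes, intervals came from the same model, the threshold was 0.05, and no covariate was used. The fit was also run on simulated arrays with independent normal noise drawn from its own spread estimates. Such arrays obey the model, so they do not test how real arrays depart from it. Python 3.11.15 with pandas 2.3.3 and matplotlib 3.10.9 joined tables and drew figures. The number of arrays limits the precision.

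The members, gene lists, tests and alternatives were chosen with earlier results of these data known. Values per array were given for called members, for all H3K9 genes and for the 5 other members with the smallest p. Per-array values of other members were added after they were seen, as was the choice among windows of a promoter. Of the related genes, the 8 called with the smallest p were to be named, and the others were added after their values were seen. Alternatives covered scaling, dim genes, probe set choice, the variance model, array weights, a replicate block and each array left out; the non-overlap counts under both scalings were added after seeing the data.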

Additional observations from a re-analysis of the deposited data

How the results depend on the processing

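The members called numbered 3 in the main fit, beside 2106 over all genes. With the dimmest 40% of genes left out, 4 of the 42 members kept were called, beside 2136 of 11963 genes. With quantile normalisation repeated and with every array set to the same median the members called were also 4, beside 2122 and 2224 over all genes. They were 3 with the mean of probe sets (2119 over all genes), a variance trend (1954) and every probe set as a feature (2462 of 28853 probe sets). They numbered 7 with array weights (3252 over all genes, 24 related), 5 with the replicate block (related 12, all genes 2376) and 0 with an ordinary test without moderation (18 over all genes, 0 related), where Hdac3 also lost its call (log2 change −1.62, adjusted p = 0.0704). Array weights added Phf8, Dnmt1, Kdm1a and Setd7, and the replicate block added Dnmt1 and Setd7. Tumour 3 has no control of its number, so the block also takes it out of the contrast, and the log2 changes equal those without tumour 3, where Dnmt1 was called too. The 3 members and Kmt5a kept their calls under that block, while Bmi1, Kmt2c, Nsd3 and Setd5 were replaced by Hells, Mecom, Pcgf2 and Zbtb33. The numbers were not found to pair arrays, since deviations from group means correlated at 0.004 for replicate 1 and −0.013 for replicate 2. With any array left out, members called ranged from 0 to 7, related genes from 0 to 20, genes overall from 108 to 2719 and the Hdac3 change from −1.71 to −1.54. The median change of the members stayed between −0.01 and 0.12 in all settings, negative only with every array set to the same median, a setting that moved the median of all genes from −0.02 to −0.12 and the risen share of calls from 53% to 42.7%.

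Near-0 changes turned sign. Kdm3a was −0.0035 with quantile normalisation repeated and −0.056 with every array set to the same median, where Suv39h2 was −0.062, Trim28 −0.011 and Kdm3b −0.088. Suv39h2 was −0.025 with array weights and −0.12 with the replicate block, where Trim28 was −0.054. With an array left out, Setdb1 ranged from −0.14 to 0.086, Ehmt2 from −0.062 to 0.028, Kdm3a from −0.0086 to 0.11, Kdm3b from −0.016 to 0.036, Suv39h2 from −0.12 to 0.18 and Trim28 from −0.054 to 0.16. The cause was not tested. With 2 against 3 arrays, leaving out a control ended every call among the members.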
